A study of Mus musculus with 8 samples.

Results

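The clusters described here are antisense starts inside gene bodies. They are groups of RNA 5′ ends, read by a method that captures capped RNA, within a protein-coding gene but on its opposite strand. A cluster was a member when its dominant TSS, the base the authors name as its main start, lay more than 500 bp from every annotated transcript start of its own strand, outside every gene of its own strand, and inside a protein-coding gene of the other strand (GENCODE vM21, mm10). In E14, 1980 of 32857 clusters met this rule, which is 6.03% (95% Wilson interval 5.77 to 6.29). In clone A1 2000 of 33005 clusters met it, and in clone C7 1990 of 32870. The intervals of shares given throughout cover counting error only, and clusters that share a gene are not independent of each other.

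The clusters come from CAGE-seq, which captures the 7-methylguanosine cap of RNA and reads the 5′ end of the cDNA, here from randomly primed nuclear RNA. E14 is a mouse embryonic stem cell (mESC) line, grown with serum and LIF, and served as the wild-type. The 2 other lines were Pwwp2a/b DKO clones A1 and C7, made from mESCs, and each is 1 clone, so an effect of the knockout and a trait of a clone cannot be told apart. There were 3 E14, 2 A1 and 3 C7 libraries, which the authors merged into 1 cluster set a line. The clusters come with positions and no counts, so the depth behind each of them is unknown here, and the study's totals of mapped reads were not used.

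PWWP2A and PWWP2B are proteins that bind H3K36me3, a histone mark of transcribed gene bodies, and they associate with histone deacetylase subunits of the NuRD complex. The study asked whether initiation inside genes depends on them. Transcription of the strand opposite a gene is known from divergent promoters, where an upstream or intragenic antisense RNA starts near the sense start, and from enhancers in introns, which give short capped RNAs on both strands. A canonical mammalian start has a pyrimidine at -1 and a purine at +1, the initiator step, while the promoters of ribosomal protein genes use a polypyrimidine initiator in which a C is the first transcribed base.

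Since no expression value was used and each line is 1 merged set, no difference between lines could be tested and none has a p-value. Pwwp2a had a cluster at an annotated promoter in all 3 lines and Pwwp2b in none. A promoter cluster does not show whether the deleted part of the gene is present, so it does not check the knockout. All 9 embryonic stem cell markers, Nanog, Pou5f1 and Sox2 among them, had a promoter cluster in every line, as did Sox17 and Sox7 of the 3 primitive endoderm markers and both fibroblast markers, Col1a1 and Thy1. None of the trophoblast, mesendoderm or neural markers had one.

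The distance rule cut through few clusters. In E14, 16 members lay in the 100 bp just beyond the limit, the closest at 503 bp from the nearest same-strand transcript start. In the 100 bp just inside it lay 18 clusters within opposite-strand coding genes, the farthest at 485 bp, among 308 that were left out for lying within 500 bp. The median distance of a member to the nearest same-strand start was 17440 bp opposite exons and 27108 bp opposite introns.

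Of the members, 22 in E14, 23 in A1 and 23 in C7 lay on the mitochondrial genome, where both strands are transcribed across their whole length, and they are left out of everything below. The nuclear members numbered 1958, 1977 and 1967. In E14 48.7% of them (46.5 to 50.9) were on the plus strand, and 23 lay inside 2 or more coding genes.

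The sequences at exonic starts differed with their place in the gene, as counts given further below show. The starts printed here are examples only, since the group of 6 was picked for its bases. Each line gives 30 bases of the strand on which the antisense RNA runs, 5′ to 3′, with the bases -1, +1 and +2 in capitals, +1 being the dominant TSS. The sequences were taken from GENCODE transcripts and RefSeq promoter windows of GRCm38. The group of 6 holds, for each of the 6 genes with the most starts reading TCT at these bases in E14, its widest such start.
Luc7l3: ccgtgaacgacttcTCTttctcctttctct
Atrx: ccttttctactttgTCTgcttctcagatgt
Eif3a: aaggtctttgtcatTCTcctctcgatcttg
Ncl: ttcaggggcttcttTCTgcttggtcatctc
Akap12: cttggtaggttcttTCTctcggttttcttc
Chd4: cttggatttgctctTCTtctctttcttagg

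These genes encode a splicing factor (Luc7l3), chromatin remodellers (Atrx and Chd4), a subunit of translation initiation factor eIF3 (Eif3a), nucleolin (Ncl) and a protein kinase A anchoring scaffold (Akap12). All 6 starts lay opposite coding sequence. The Luc7l3 start, at chr11:94296912-94297108 on the plus strand, was 25000 bp downstream of the start of its gene, and the Ncl start, at chr1:86356384-86356447 on the plus strand, was 2992 bp downstream. The Chd4 start was at chr6:125100900-125100967 on the minus strand, 4952 bp downstream.

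The group of 4 holds wide exonic starts under 1 kb from the start of the gene they lie in. They come from Laptm4a, a lysosomal membrane protein, Hnrnpu, a nuclear RNA-binding protein, Tgoln1, a trans-Golgi protein, and Tmem80, a transmembrane protein.
Laptm4a: cccaatcaaaagttCAActctctccggcgc
Hnrnpu: ccgccgctgccggcGGTtgggactgctgct
Tgoln1: caagtccagctcttTATtcccccccaagtc
Tmem80: ccgcaccctcccgcCATcttcgctcctccc

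None of these 4 reads TCT at the capitals, and 3 of them have a pyrimidine at -1 and a purine at +1. The exception is Hnrnpu, the only start of the 4 opposite coding sequence, while the others lay opposite a 5′ UTR. The Laptm4a start, at chr12:8921819-8921872 on the minus strand, was 203 bp downstream of the gene's start, and a promoter cluster of the gene's strand started 181 bp from it in the divergent direction.

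Across the genome the members split almost evenly between exons and introns of the gene they oppose, termed the host below. In E14, 989 lay opposite an exon (50.5%, 48.3 to 52.7) and 969 opposite an intron. In A1 the counts were 1002 and 975, and in C7 1006 and 961. The exonic share was thus 50.7% in A1 and 51.1% in C7, inside the E14 interval. With clusters under 3 bp of interquantile width left out, the E14 share was 53.6%.

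**Figure D1:**
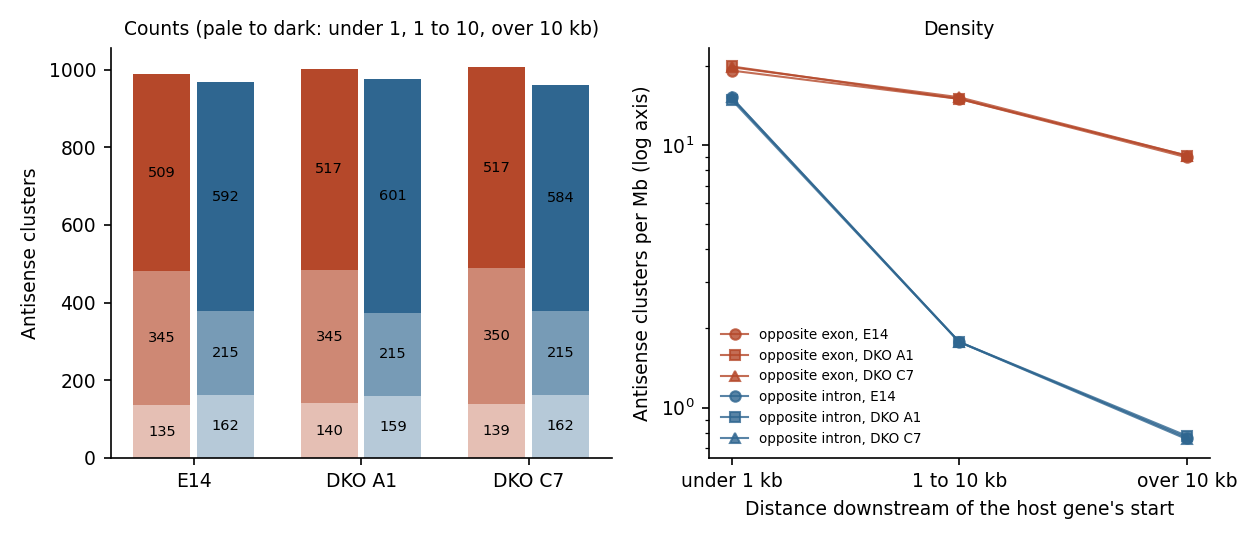
Left, antisense clusters opposite an exon (red) and an intron (blue) in each line, stacked by distance downstream of the host gene's start. Right, clusters per Mb of eligible exon or intron on a log axis; in E14 the exonic density fell from 19.2 under 1 kb to 8.96 over 10 kb and the intronic density from 15.1 to 0.769.

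Exons make up a small part of gene bodies, so the even split means a much higher density in exons. Counted over the bases where a member could lie, E14 had 11.4 members per Mb opposite exons (86.9 Mb) and 1.07 per Mb opposite introns. Within 1000 bp of the host's start the densities were close, 19.2 per Mb in exons and 15.1 in introns. From 1 to 10 kb they were 14.9 and 1.78, and over 10 kb 8.96 and 0.769. Both densities were lower away from the host's start, the intronic density more steeply than the exonic. Clusters on the gene's own strand were denser, at 52.2 per Mb in exons and 2.91 in introns. The values of A1 and C7 lay close to those of E14, with exonic densities of 11.5 and 11.6 per Mb and intronic densities of 1.08 and 1.07.

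Most members were far inside their hosts. In E14 297 (15.2%) lay under 1 kb downstream of the host's start, 560 (28.6%) at 1 to 10 kb and 1101 (56.2%, 54.0 to 58.4) over 10 kb. The exonic share was 45.5% under 1 kb (39.9 to 51.1), 61.6% at 1 to 10 kb (57.5 to 65.5) and 46.2% over 10 kb (43.3 to 49.2), so it was highest in the middle range. Measured from the nearest upstream transcript start of the host instead of the gene's start, 33.5% lay over 10 kb downstream.

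Exonic members sat a median of 10667 bp downstream of the host's start (quartiles 2950 and 26770) and at 57.0% of the host's length. Intronic members sat at a median of 17472 bp (quartiles 2404 and 65559) but at 31.6% of the host's length, and their hosts were longer, with a median of 71645 bp against 27010 bp. In A1 and C7 the exonic medians were 57.5% and 57.1% of the host's length and the intronic medians 32.7% and 31.4%. Exonic members were therefore spread along the whole gene, whereas intronic members lay more often in its 5′ part.

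Of the exonic members in E14, 751 lay opposite coding sequence (75.9%, 73.2 to 78.5), 101 opposite a 5′ UTR (10.2%), 71 opposite a 3′ UTR (7.18%), 16 opposite a UTR between coding parts and 50 opposite an exon of a noncoding transcript. The coding share rose with distance, from 27.4% under 1 kb (20.6 to 35.5) to 76.8% at 1 to 10 kb and 88.2% over 10 kb (85.1 to 90.7). Few dominant TSSs lay at exon ends. Only 43 (4.35%) were within 5 bp of one, and the median member was 157 bp from the 5′ end and 184 bp from the 3′ end of its exon.

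The bases at the dominant TSS could be read for 973 of the 989 exonic members in E14. For intronic members they could be read for 9.39%, below the 80% required for a sequence check, because no genome sequence was used here and GENCODE transcripts hold few intronic bases. The check is therefore void for introns. TCT at -1 to +2 was the most frequent trinucleotide among the exonic members, with 387 of 973 (39.8%, 36.7 to 42.9), followed by CAG with 51 (5.24%). The search looked for the letters TCT at those 3 bases on the strand of the start. In A1 375 of 990 read TCT (37.9%) and in C7 371 of 988 (37.6%).

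The same letters stood at 28 of 4231 sense exonic clusters (0.662%) and at 314 of 17565 promoter clusters (1.79%). Over all positions on the antisense strand of the hosts' exons, 2.41% read TCT. With 1 member a host the share was similar, since of 576 hosts 219 (38.0%, 34.1 to 42.1) had TCT at their widest exonic member and 264 had it at any. C was the base at +1 in 55.3% of exonic members and T the base at +2 in 71.5%, and A was scarce from +2 to +7, at 9.97%, 11.5%, 17.5%, 12.1%, 10.2% and 10.1% in turn. Among the 27 bases flanking TCT, 71.7% were pyrimidines, against 53.9% around the other exonic members.

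The pyrimidine-purine step at -1 and +1 was found at 216 of 973 exonic members (22.2%, 19.7 to 24.9), at 10.5% of sense exonic clusters and at 74.6% of promoter clusters. A start that reads TCT cannot have it, so these 2 shares are not independent. Among the 586 exonic members without TCT the step was found at 36.9% (33.1 to 40.8).

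**Figure D2:**
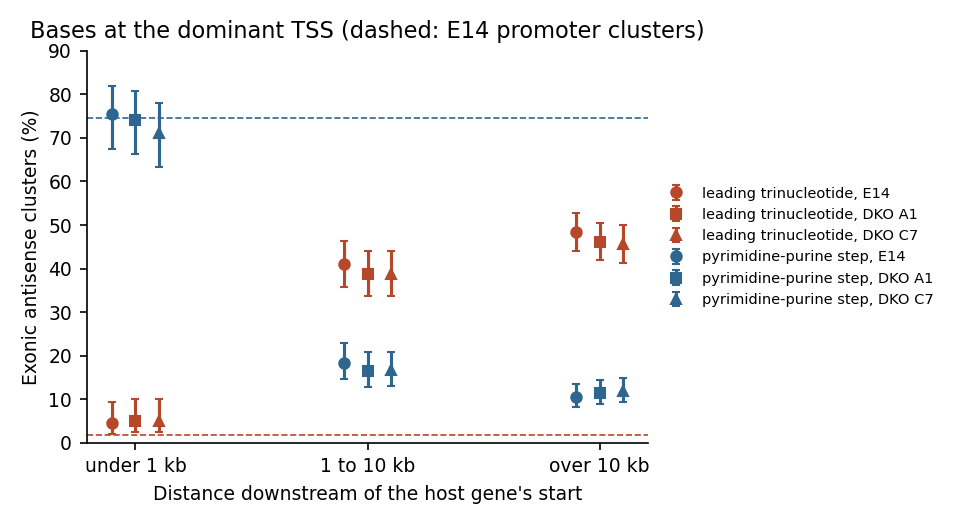
Share of exonic antisense clusters with TCT at -1 to +2 (red, the leading trinucleotide) and with a pyrimidine-purine step at -1 and +1 (blue) by distance downstream of the host gene's start, for the 3 lines, with 95% Wilson intervals and E14 promoter clusters as dashed lines. Under 1 kb the step was at 75.4% and TCT at 4.48% in E14; over 10 kb they were at 10.6% and 48.4%.

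Both features changed with distance from the host's start. Under 1 kb, 101 of 134 exonic members had the step (75.4%, 67.4 to 81.9), a share near that of promoter clusters, and 6 read TCT (4.48%, 2.07 to 9.42). At 1 to 10 kb the step was at 18.4% (14.6 to 22.9) and TCT at 40.9% (35.8 to 46.3). Over 10 kb they were at 10.6% (8.17 to 13.6) and 48.4% (44.1 to 52.8). The lines had the same order, with TCT over 10 kb at 46.2% in A1 and 45.7% in C7, and the step under 1 kb at 74.1% and 71.2%. Choosing TCT for this comparison followed from seeing the base counts of the same clusters.

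The share with TCT differed between exon parts as well. It stood at 361 of 735 readable members opposite coding sequence (49.1%, 45.5 to 52.7), at 18 of 71 opposite a 3′ UTR (25.4%, 16.7 to 36.6) and at 4 of 101 opposite a 5′ UTR (3.96%, 1.55 to 9.74). Within the 1 to 10 kb range it was at 49.8% opposite coding sequence (43.7 to 55.9) and 12.5% opposite other exon parts (6.93 to 21.5), and over 10 kb at 52.0% (47.4 to 56.7) and 21.7% (13.1 to 33.6). Under 1 kb it was at 3 of 36 and 3 of 98. Members reading TCT lay a median of 17281 bp downstream of the host's start and the other exonic members 7303 bp. Their interquantile width, defined next, had a median of 11 bp against 8 bp. A promoter cluster within 1000 bp in the divergent direction was found for 9.30% of TCT members (6.80 to 12.6) and for 25.3% of the others (21.9 to 28.9). These shares were not split by distance, and 1.55% of TCT members lay under 1 kb against 21.8% of the others.

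The interquantile width is the length that holds the signal of a cluster between its 0.1 and 0.9 quantiles, and is 1 bp where nearly all 5′ ends share a base. In E14 the median was 10 bp among exonic members, with quartiles of 4 and 19 bp, and 5 bp among intronic members (3 and 15). Sense exonic and sense intronic clusters both had a median of 3 bp, intergenic clusters 5 bp and promoter clusters 20 bp. Exonic members were wider than sense exonic clusters by the median on 20 of 20 chromosomes in each line, and wider than intronic members on 19 in E14, 20 in A1 and 19 in C7.

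**Figure D3:**
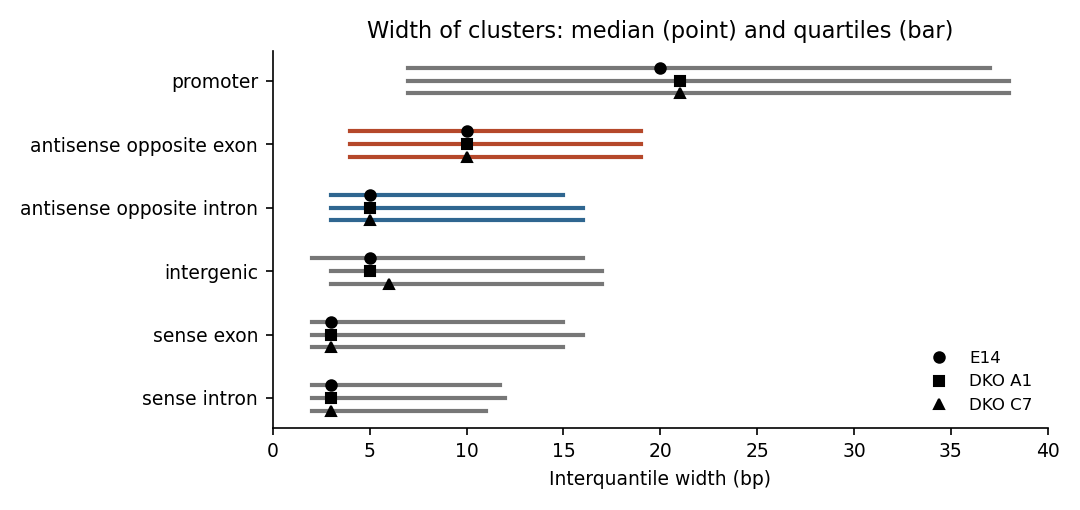
Interquantile width in bp of clusters of each class, with the median (point) and the quartiles (bar) for E14, A1 and C7. Exonic antisense clusters have a median of 10 bp in every line, between promoter clusters and all other classes.

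Very narrow clusters were less frequent among the members than among sense clusters inside genes. At most 2 bp were found in 13.95% of exonic members (11.9 to 16.3) and 23.9% of intronic members (21.4 to 26.7), against 43.7% of sense exonic and 46.1% of sense intronic clusters. Intergenic clusters, at 25.1% (23.8 to 26.6), were close to intronic members. The width of exonic members changed little with distance, with medians of 11 bp under 1 kb, 11 bp at 1 to 10 kb and 9 bp over 10 kb.

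The widest exonic member of E14 was in Polr2a, the gene of the largest RNA polymerase II subunit. It spanned chr11:69734599-69734984 on the plus strand, with an interquantile width of 279 bp, opposite coding sequence and 23880 bp downstream of the gene's start. The next were in Hsp90ab1, which encodes the chaperone HSP90β, with 152 bp at chr17:45570296-45570549, and in Luc7l3, with the 146 bp start shown above. All 3 were overlapped by a cluster of the host's strand. The 3 widest intronic members, of 173, 151 and 111 bp, all lay in Gm47283, a predicted gene on the Y chromosome.

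Members often lay beside starts of the other strand. A partner was the nearest dominant TSS of the other strand within 1000 bp, divergent where it lay upstream of the member, so that the 2 RNAs run apart, and convergent where it lay downstream. Exonic members had a divergent partner in 44.4% of cases (41.3 to 47.5) and a convergent partner in 57.2% (54.1 to 60.3). Intronic members had them in 25.9% (23.2 to 28.8) and 26.5% (23.8 to 29.4). For sense exonic clusters the shares were 13.7% and 15.9%, for intergenic clusters 30.5% and 9.77%, and for promoter clusters 24.9% and 6.91%. Partners are often shared, so that a pair is counted from both of its sides and a smaller class can reach a higher share from the same pairs, and no chance level was computed. In A1 and C7 the divergent shares of exonic members were 44.5% and 44.6%, and those of intronic members 25.7% and 26.1%.

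**Figure D4:**
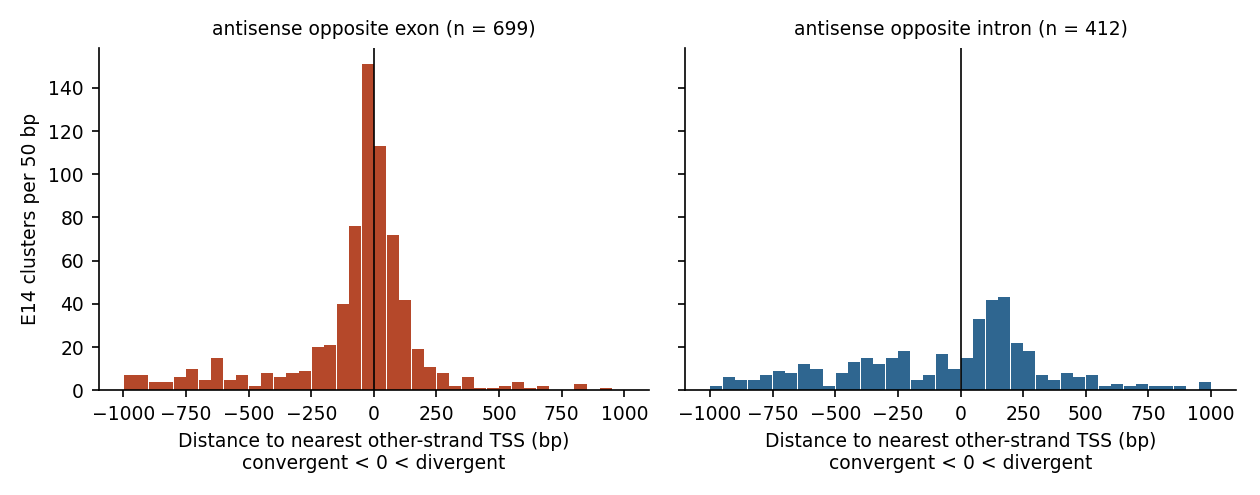
Distance in bp from each E14 antisense cluster to the nearest dominant TSS of the other strand within 1000 bp, negative where convergent and positive where divergent, in bins of 50 bp, for 699 exonic and 412 intronic clusters with a partner. Exonic clusters pile up on both sides of 0, and intronic clusters on the divergent side between 50 and 250 bp.

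The partners of exonic and intronic members differed in distance and kind. Divergent partners lay a median of 91 bp away opposite exons (quartiles 40.5 and 215.5) and 182 bp away opposite introns (108 and 322.5). Convergent partners lay 111 bp and 393 bp away. Of the 439 divergent partners of exonic members, 239 were sense exonic clusters and 188 were at an annotated promoter, counting promoters of internal transcripts as well. Of the 251 divergent partners of intronic members, 107 were sense intronic clusters and 134 were at a promoter. A cluster of the other strand overlapped 132 exonic members (13.3%, 11.4 to 15.6) and 2.06% of intronic members, and 372 exonic members (37.6%) had a sense cluster in the same exon.

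A member under 1 kb downstream has the host's annotated start within 1000 bp in the convergent direction, so a promoter cluster at that start is a convergent one by position. Promoter clusters of the host can also lie on the divergent side, as with the Laptm4a start above. Under 1 kb, 129 of 162 intronic members (79.6%, 72.8 to 85.1) and 71 of 135 exonic members (52.6%, 44.2 to 60.8) had a promoter cluster as convergent partner. A divergent partner of any kind was found there for 58 of 162 intronic (35.8%) and 88 of 135 exonic members (65.2%, 56.8 to 72.7). Over 10 kb a divergent partner of any kind was found for 127 of 592 intronic members (21.5%, 18.3 to 24.9). Exonic members over 10 kb had a divergent partner in 35.95% of cases and a convergent partner in 51.5%.

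The nuclear members of E14 lay in 1216 hosts, those of A1 in 1225 and those of C7 in 1223. In E14 887 hosts (72.9%) held 1 member and 53 held 5 or more. Exonic members lay in 577 hosts, intronic members in 712, and 73 hosts held both kinds. Counted by member, 95.6% of exonic members (94.1 to 96.7) lay in a host with a promoter cluster, against 76.5% of intronic members (73.7 to 79.0). Counted by host, 537 of the 577 hosts of exonic members had a promoter cluster, and 545 of the 712 hosts of intronic members.

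**Figure D5:**
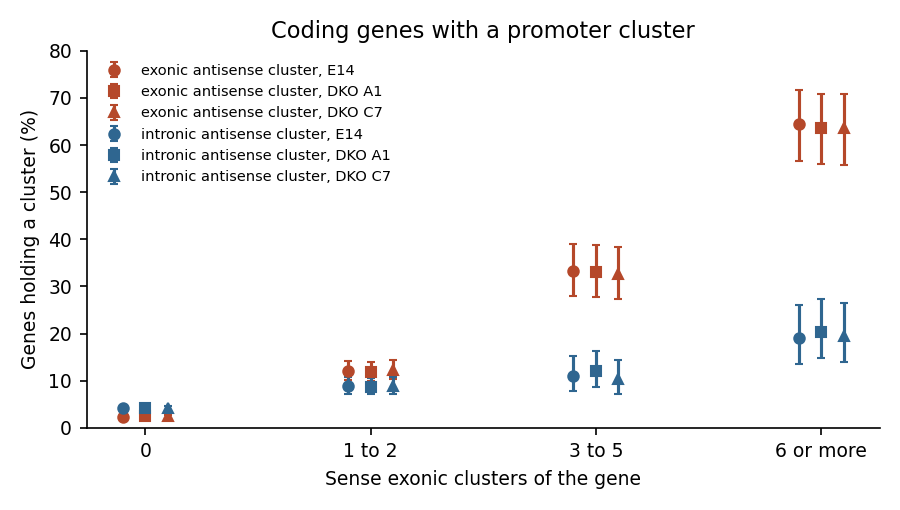
Share of protein-coding genes with a promoter cluster that hold an exonic (red) or intronic (blue) antisense cluster, by their number of sense exonic clusters, in the 3 lines with 95% Wilson intervals. In E14 the exonic share was 2.36% at 0 sense clusters and 64.5% at 6 or more, and the intronic share 4.12% and 19.1%.

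Genes with more starts on their own strand in exons held exonic members at a higher rate, although the largest group of such hosts, 227 genes, had no sense exonic cluster. Of 9632 coding genes in E14 with a promoter cluster and no sense exonic cluster, 2.36% held an exonic member (2.07 to 2.68). The share was 12.1% with 1 to 2 sense exonic clusters (10.2 to 14.3), 33.2% with 3 to 5 (27.9 to 39.0) and 64.5% with 6 or more (56.6 to 71.6). For intronic members the shares were 4.12%, 8.89%, 10.9% and 19.1%. Exon length moved with these groups, with medians of 4282, 5784, 6587 and 8452 bp, and its part in the shares was not tested. In A1 the exonic shares of the lowest and highest groups were 2.43% and 63.7%, and in C7 2.44% and 63.6%.

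The 10 hosts with the most members in E14, ties broken by name, each held mostly exonic or mostly intronic members. Tet1, tied for the last place with 9 members but left out by name, was mixed, with 4 exonic. Atrx, with 16 members, had 14 opposite exons, of which 11 lay from 52464 to 54506 bp downstream of its start and 3 from 78249 to 78354 bp downstream. Of these 14, 6 read TCT. Eif3a and Hnrnpa2b1, which encodes a spliceosome-associated RNA-binding protein, had 12 each, all exonic. Akap12 had 12, of which 11 were exonic and 5 read TCT. L1td1, an RNA-binding protein of embryonic stem cells, had 11, all exonic, and Ncl had 10, all exonic, of which 6 read TCT. Pabpc1, the cytoplasmic poly(A)-binding protein, had 10, of which 9 were exonic and 1 read TCT.

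The other 3 were intronic hosts. Gm47283 had 16 members and Etl4, which 4 other hosts equalled, had 9, all intronic, and Pcmtd1 had 10, of which 9 were intronic. The Gm47283 members lay between 20143 and 28557 bp downstream of its start, and 13 of the 16 were overlapped by a cluster of the other strand. In Etl4, a gene of 900934 bp, the members lay from 587653 to 763605 bp downstream. The 9 intronic members of Pcmtd1 lay from 37144 to 41366 bp downstream. Each of these 10 hosts had the same number of members in all 3 lines.

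Among 28 pluripotency genes 10 held a member, the same 10 in every line. Of all 11059 coding genes with a promoter cluster in E14, 4.86% held an exonic and 4.93% an intronic member. The list count takes members of either kind. The matching share over these genes is higher than each of the 2 shares and was not computed. The list was not matched for gene length, and an excess was not tested. Tet1, a 5-methylcytosine dioxygenase, held 9, of which 4 were exonic. Esrrb, an orphan nuclear receptor, held 5, all intronic and from 108904 to 143246 bp downstream, and 3 of them had a divergent partner, at 95, 177 and 443 bp. Jarid2, a subunit of Polycomb repressive complex 2, held 5, of which 3 lay close together in an intron, from 140187 to 140540 bp downstream. Tet2 held 5 and Tdgf1, a growth factor co-receptor, held 3. Sox2, which has no intron, held 1 opposite its 3′ UTR at chr3:34651523-34651525, reading GGT, and Fgf4, Nr5a2, Sall4 and Smarca4 held 1 each.

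Of 14 NuRD genes, 2 held a member. This count and that of the H3K36 list below have the same background shares, over coding genes with a promoter cluster and for each kind of member alone. Neither count was tested. Chd4, the remodelling ATPase of the complex, had 6, all exonic, of which 5 read TCT in E14 and A1 and 3 in C7. Mta3 held 1, opposite an intron 44143 bp downstream. Of the 31 annotated genes of a list on H3K36 methylation and its readers, 29 had a promoter cluster and 8 held a member. Nsd1, an H3K36 methyltransferase, had 4, of which 3 were exonic, and Setd5 had 3, all exonic. Dnmt1, the maintenance DNA methyltransferase, had 1, reading TCT in every line, and Ssrp1 and Supt16, the subunits of the histone chaperone FACT, had 1 each. Iws1, Kdm4c and Supt6 had 1 each. Neither Pwwp2a nor Pwwp2b held a member.

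A further 4 genes were looked up because their CAGE profiles are displayed in the publication. Nap1l1, a histone chaperone, held 2 members, both opposite coding sequence, at 17834 and 22120 bp downstream. Both read TCT in E14, and 1 of them did in each clone. Wtap, a subunit of the m6A methyltransferase complex, held 1, an intronic cluster of 3 bp at chr17:12991861-12991863 on the plus strand, 291 bp from a promoter cluster in the convergent direction. Hnrnpk and Ptges3 held none.

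Nearly all members were found in all 3 lines. Same-strand clusters of different lines were counted as 1 cluster where they shared 1 bp or more, which gave 2004 nuclear members over the lines, of which 1924 (96.0%, 95.1 to 96.8) were in every line, against 97.4% of all clusters. Of 1923 members paired 1 to 1, 1890 (98.3%) had identical bounds in E14, A1 and C7, so the lines' clusters were not bounded independently. Presence therefore says only which line a cluster was kept in.

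In both clones and not in E14 there were 23 members (1.15%, 0.766 to 1.72), where the share over all clusters was 0.444%. Of these, 14 were exonic and 9 intronic. In E14 alone there were 8 (0.399%, 0.202 to 0.786), against 0.228% of all clusters, and all 8 were intronic. In A1 alone there were 20 (0.998%, against 0.651%) and in C7 alone 3 (0.150%, against 0.321%). For both clones the interval lay above the share over all clusters, and the intervals for E14 alone, A1 alone (0.647 to 1.54) and C7 alone (0.0509 to 0.439) included it. With clusters under 3 bp of interquantile width left out of every line, a narrower cluster in a line counted as absent there. On that count 48 members were in both clones and not in E14, and these can have a narrower E14 cluster. They are 2.95% (2.23 to 3.89) of the members of A1 that were left, against 1.45% of all clusters. By the same count 2 were in E14 alone (0.126%, against 0.223%). Sense exonic clusters had 40 of 4363 in both clones and not in E14 (0.917%, 0.674 to 1.25), within the interval of the members.

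The members present in the clones alone were narrow, 14 of the 23 having an interquantile width of at most 2 bp, and 2 of the 14 exonic ones read TCT. The widest was in Csgalnact1, a chondroitin sulfate synthesis gene, where an intronic cluster, 16 bp wide in A1, lay at chr8:68521505-68521520, 213626 bp downstream of the gene's start. In Fancc, a Fanconi anaemia gene, a cluster of 14 bp lay opposite a UTR between coding parts.

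In Polr2a a cluster of 9 bp at chr11:69735428-69735436 lay opposite coding sequence, near the widest exonic member, which was present in every line. Suds3, a subunit of the Sin3 histone deacetylase complex, had a cluster of 4 bp opposite coding sequence, and Fam131a 1 of 8 bp opposite its 3′ UTR. Zfp808, Hsd17b14, Pnldc1, Cast, Eno1 and Gm12790 had clusters of 2 to 4 bp. The 8 members of E14 alone, in Brox, Cntn5, Myh14, Myrfl, Pced1b, Rab37, Slc25a39 and Zdhhc19, all had a width of 1 bp.

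The dominant TSS of a member often differed between lines within the same cluster. It was at another base than in E14 in 28.2% of paired members in A1 and 26.2% in C7, against 23.7% and 21.1% of all clusters. The other classes away from promoters had like shares, with 29.4% and 24.3% of sense intronic, 26.4% and 23.9% of intergenic and 25.4% and 22.9% of sense exonic clusters. In 13.3% of members it differed in both clones, against 11.1% of all clusters, 12.4% of sense intronic and 12.5% of intergenic clusters. Both clones had the same new base in 10.3% of members, against 8.47%, 9.98% and 10.1% in the same order. The median shift was 5 bp in each clone. Of the shifts, 52.0% in A1 (47.8 to 56.2) and 52.3% in C7 (47.9 to 56.6) were upstream, so neither direction prevailed beyond counting error. For exonic members the shares were 29.98% in A1 (27.2 to 32.9) and 26.8% in C7 (24.2 to 29.7), and for intronic members 26.3% and 25.5%.

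The interquantile region was wider than in E14 in both clones for 8.68% of paired members, against 12.5% of all clusters, and narrower in both for 2.34%, against 3.99%. Promoter clusters, which predominate in that total, were wider in both for 16.0%, sense exonic clusters for 6.17%, sense intronic clusters for 5.66% and intergenic clusters for 8.404%. Members were thus below promoter clusters and near or above the other classes.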

How the data were processed

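CAGE-seq of nuclear RNA was analysed from 3 E14, 2 Pwwp2a/b DKO A1 and 3 DKO C7 libraries. Per the labels, the authors mapped reads to mm10, and the labels name STAR 2.4.2a, SAMtools 1.3 and bedtools 2.17.0. The methods state that CAGEr called and aggregated the clusters after power-law normalization, with quantiles 0.1 and 0.9 for the interquantile region. The deposited values used here are cluster positions: start, end, dominant TSS and the blocks of the interquantile region. Each score column holds 0, so no signal was used. The minimum signal of a cluster is not given in the sources used here.

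Clusters were categorised against GENCODE vM21, a release other than the study's, in Python 3.11.15 with NumPy 2.4.6, and plotted with Matplotlib 3.10.9. The host of a member was the coding gene of the other strand whose start was nearest upstream, or, for its exon, the nearest with an exon there. Shares have 95% Wilson intervals. No p-value was calculated, since clusters are not replicates and libraries were merged. Checked on simulated positions inside coding genes, 1000 of 1000 categories and 910 of 910 exon or intron calls were recovered. Sequences were read only where at least 80% of a class could be read.

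The members, the gene lists and the comparisons were chosen with earlier results of these data known. The genes named are the 10 hosts with the most members in E14, the hosts of members in both clones and not E14 (the 12 widest) or in E14 alone, the hosts of the 3 widest exonic and 3 widest intronic members, the knocked-out genes, the genes shown by the study and the list genes that host a member. The genes behind the printed sequences, and the use of TCT, were chosen after the values were seen. Some items that these rules name are not reported here. The alternatives were the promoter window, the cluster middle, basic transcripts, coding transcripts only, a minimum width, the transcript start, the whole width, other overlap rules, each clone alone and other partner rules.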

Additional observations from a re-analysis of the deposited data

Results flagged for a closer look

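Outside the nuclear comparisons, the rule also found antisense clusters on the mitochondrial genome, 22 in E14, 23 in A1 and 23 in C7. Whether their 5′ ends mark starts of transcription was not tested. These clusters entered no comparison in the report. In E14, 9 lay opposite mt-Nd5, 4 opposite mt-Nd4, 3 opposite mt-Nd2 and 2 each opposite mt-Co1, mt-Cytb and mt-Nd1. In both clones mt-Nd1 had 3. The widest cluster opposite mt-Nd1 in E14 had an interquantile width of 85 bp. The libraries of each line were merged in the clusters used here, so no outlying library could be looked for.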

How the results depend on the processing

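No paired analysis was possible because the libraries of each line were merged before the clusters were called, and leaving out a library was impossible for the same reason. Of 94 values under other settings, 54 stayed within the interval of the main value, or within 1.5 times it for counts, and 40 moved. The members per line stayed within 1.5 times the main count under every setting tried. Counting mitochondrial members, the width minimum for TCT, its split by exon part within distances and the width minimum over all clusters were added after seeing the data. In the order E14, A1 and C7, a minimum interquantile width of 3 bp gave exonic shares of 53.6%, 53.3% and 53.9% and a median width of 11 bp in each, and TCT at 43.1% in E14. Exons of protein-coding transcripts alone gave 47.9%, 48.002% and 48.4%. Distance from the nearest upstream transcript start of the host put 33.5%, 33.6% and 32.9% of members over 10 kb. The whole cluster width had a median of 9 bp in E14 and C7. Divergent partners of exonic members stood at 39.7%, 39.6% and 39.8% within 500 bp, at 49.5%, 49.8% and 49.7% within 2000 bp, and at 28.0%, 28.1% and 28.3% without promoter partners. For intronic members they stood at 22.7%, 22.1% and 23.0% within 500 bp, at 28.8% in E14 and 29.0% in C7 within 2000 bp, and at 12.5%, 12.7% and 12.4% without promoter partners. CA alone as the initiator step stood at 10.3%, 8.79% and 10.2% of exonic members. Members found in DKO cells and not in E14 numbered 48 with the width minimum and 43 for A1 alone against E14, and members found in E14 alone numbered 2 with the width minimum, 25 against A1 alone and 17 against C7 alone. With the width minimum, a cluster narrower than 3 bp in a line counts as absent there. The part of depth was not tested, since the clusters carry no counts.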
